A study of Mus musculus with 101 samples.

Results

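XX germ cells of F3 mouse embryos were compared between descendants of F0 dams given 2 mg/kg-day of benzo[a]pyrene (BaP) and descendants of F0 dams given vehicle. The members were the RNA-seq samples labelled F3, XX and high dose (4 embryos) or F3, XX and vehicle (6 embryos), 10 of the 101 embryos in the series. Each sample held the germ cells of 1 embryo at E13.5, and each of the 10 embryos came from another dam, reading the number before the point in an embryo's name as its dam. The 4 high-dose embryos were D2032.2, D2204.1, D4190.2 and E0103.2, and values of this group are given in that order. The 6 vehicle embryos were D1344.3, D1388.3, D3402.1, D3526.1, D3612.1 and D3651.2, and are given by their lowest, median and highest value.

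Every embryo carried the OG2 transgene, in which the Pou5f1 promoter drives EGFP, on a C57BL/6J background. Pregnant F0 dams ate sesame oil alone (vehicle, 0 mg/kg-day) or oil with BaP, and for the F3 generation this ran from E6.5 to E15.5. F1 and F2 animals of 1 dose group that were not littermates were mated, so neither the F3 embryos nor the germ cells they arose from were dosed. Gonads were dissociated, EGFP-positive cells were sorted, and polyadenylated RNA was sequenced after low-input, unstranded library preparation. The sort follows activity of the Pou5f1 promoter, and gates removed clumps and dead cells. Descent of the F3 dams from single F0 dams was not used here, so dose and shared descent cannot be told apart.

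In a fetal ovary of this age, XX germ cells leave mitosis and enter meiosis, a step that retinoic acid and BMP signals drive through Stra8, while they shut off pluripotency genes. Cells of 1 ovary do not all take this step together. BaP is a polycyclic aromatic hydrocarbon that activates the aryl hydrocarbon receptor and is turned by cytochrome P450 enzymes into metabolites that form bulky adducts on DNA.

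The libraries held between 6518551 reads (D2204.1) and 8708774 reads (D3651.2) on the genes of the table. Reads averaged 7485710 ± 991256 (SD, n = 4) in the high-dose group and 7961087 ± 633166 (SD, n = 6) in the vehicle group (exact permutation test, two-sided, p = 0.362). Genes with a read numbered 13980 to 14326 in high-dose and 13941 to 14394 in vehicle embryos (exact permutation test, two-sided, p = 0.638). Adjusted over these 2 tests, both p-values were 0.638. Genes with at least 10 reads, looked at after the data were seen and without a test, numbered 10776, 10837, 11387 and 10796 in the high-dose embryos and 11189 to 11757 with a median of 11542 in vehicle embryos. A gene at 0 reads could have had up to 3, which is 0.3004 normalized counts in D1388.3 and 0.481 in D2032.2. This floor covers counting error only, since reads of copied cDNA are not independent molecules.

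Germ cell and sex markers stood where the labels place these samples. Ddx4, an RNA helicase of germ cells, had normalized counts of 415, 497, 499.7 and 308 in the high-dose embryos and 320.4 to 715 with a median of 547 in vehicle embryos. Dazl, an RNA-binding protein of germ cells, had 1248, 1918, 1068 and 611 against 879 to 1640.4 with a median of 1411. All 10 embryos were thus rich in both transcripts, and the groups overlapped. Of 8 Y-linked genes in the table, 7 had 0 reads in all 10 embryos and Ddx3y had 1 read, in D2204.1. Xist, the RNA of the inactive X chromosome, was near the floor in both groups, at 0.3205, 0.779, 0.114 and 0.987 against 0.123 to 1.30 with a median of 0.428.

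Some embryos stood apart from the rest of their group. On the first principal component of 8371 genes, which held 44.4% of the variance, high-dose embryo E0103.2 lay at 51.0 and D2032.2 at 22.3, while vehicle embryos D1344.3 and D1388.3 lay at -36.8 and -35.1. The second component held 27.5%. It placed E0103.2 at 22.2 and vehicle embryos D3526.1 at 30.9 and D1344.3 at 19.996, with the others between -31.8 and 7.01. The sum of normalized counts, looked at without a test after the data were seen, was 1082633, 1015340, 970120 and 1154677 in the high-dose embryos and 793034 to 983092 with a median of 906597 in vehicle embryos. D1344.3 and D1388.3 had the lowest sums and E0103.2 the highest. Many counts below are therefore also given without E0103.2, or without D1344.3 and D1388.3.

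Between the high-dose and vehicle embryos, limma called 0 of 13139 genes tested (0%) at an adjusted p under 0.05, and the smallest adjusted p was 0.243. At an unadjusted p under 0.05 it counted 2018 genes (15.4%). Genes that also differed at least 1.5-fold, the looser criterion that the study states, numbered 402 higher (3.06%) and 752 lower (5.72%) in the high-dose embryos. In 86 genes (0.655%) all 4 high-dose embryos lay above all 6 vehicle embryos, and in 119 (0.906%) all lay below. The median log2 difference of all genes was -0.026. In the text below, higher and lower describe the means of the embryos, and none of these genes passed the adjusted threshold in limma without array weights.

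Count-based tests on the recovered reads, which left out D1388.3, called 0 genes as well. The edgeR quasi-likelihood test counted 1263 genes at an unadjusted p under 0.05, edgeR's likelihood ratio test 1335 and DESeq2 1377. With D1388.3 kept, an alternative chosen after seeing the data, the counts at this p were 1953, 2027 and 2068. The likelihood ratio test then called 2 genes, both higher, and the other tests 0. The called genes were Tdgf1 and Gm5083 (adjusted p = 0.0134 for each). Over their alternatives the adjusted p ran from 0.0110 to 1 for Tdgf1 and from 0.0134 to 1 for Gm5083. Gm5083, a predicted gene named after its values were seen, had 1.28, 0.779, 1.49 and 2.96 normalized counts against 0 to 0.735 with a median of 0.312, with all 4 high-dose embryos above the vehicle embryos. A fit of the 2 compared groups alone, chosen after the data were seen, gave 14 calls by the likelihood ratio test, 12 higher and 2 lower, of which 7 were globin rows and 2 were mast cell genes.

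The count of calls depended on how embryos were weighted. With limma's array weights, which give each embryo a weight from its own scatter, 1191 genes were called (9.06%), 539 higher and 652 lower in the high-dose embryos, and the smallest adjusted p was 0.00712. These weights were 2.75 for D2032.2, 1.11 for D2204.1, 0.657 for D4190.2 and 0.426 for E0103.2, so D2032.2 counted most and E0103.2 least among the high-dose embryos. Of the 402 higher and 752 lower genes past the looser criterion, 229 and 412 were among the calls.

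Single embryos and the scaling also moved the counts past the looser criterion. Without E0103.2 they were 130 higher and 421 lower, and without D2032.2 273 and 526. Without D4190.2, the high-dose embryo nearest the vehicle group, they were 793 and 1174. Leaving out vehicle embryo D1344.3 gave 205 and 432, and leaving out D1388.3 gave 229 and 512. With both of these vehicle embryos left out, chosen after the data were seen, 93 and 200 genes were past it, and 383 had an unadjusted p under 0.05. The higher genes made up 34.8% of the genes past the criterion, and 47.3% after rescaling to the upper quartile (543 higher, 604 lower). Rescaling every embryo to the same sum, also chosen after the data were seen, moved the median of all genes by -0.204 and left 77 higher and 1712 lower. Differences below are therefore relative to the authors' scaling.

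Of the 12 higher genes with the smallest p among those with a mean of at least 5 normalized counts, 4 had every high-dose embryo above every vehicle embryo. The choice by p, made on the same values, favours genes whose groups lie apart. Of all genes tested, 86 (0.655%) lay above in this way. Gpx1 (chromosome 9, 108339080 to 108340342 in RefSeq, GRCm38), a glutathione peroxidase that breaks down hydrogen peroxide, had normalized counts of 1446, 1038, 1091 and 2059.5 against 553 to 1031 with a median of 750.0. E0103.2 was highest and D2204.1 lowest in the high-dose group, just above the highest vehicle embryo, D3526.1. The means were 1408 ± 470.2 (SD, n = 4) against 785 ± 197 (SD, n = 6), a log2 difference of 0.83 (SE 0.23), and the limma adjusted p was 0.243 (0.0208 to 1 over its alternatives). Tma7 (chromosome 9, 109077988 to 109082381), a small protein associated with the translation machinery, had 698, 422, 417 and 1188 against 119 to 402 with a median of 298. Its groups did not overlap, and the log2 difference was 1.35 (SE 0.36), or 1.04 without E0103.2. Ranbp1 (chromosome 16, 18239979 to 18248694), a cofactor of the Ran GTPase in nuclear transport, had 1977, 1460.4, 1344.1 and 2422 against 718 to 1338 with a median of 1179.7. D4190.2 lay just above D3526.1, the highest vehicle embryo, and the log2 difference was 0.71 (SE 0.21). A row whose symbol reads 11-Sep, a date, had 170.0, 121, 113 and 327 against 49.1 to 98.1 with a median of 82.8, again without overlap.

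The other 8 ranked higher genes overlapped between the groups, in each case with D4190.2 inside the range of the vehicle embryos. Nop10, a component of the H/ACA ribonucleoproteins that guide RNA pseudouridylation, had normalized counts of 450.3, 426, 307 and 594 against 173 to 329 with a median of 278, a log2 difference of 0.76 (SE 0.19). Dpy30, a subunit shared by the complexes that methylate lysine 4 of histone H3, had 629, 523, 394 and 770.1 against 224 to 423 with a median of 383, a difference of 0.75 (SE 0.22). For both genes 3 high-dose embryos lay above the vehicle range. The rest were Slc25a35 of the mitochondrial carrier family (0.90), Ost4 of the oligosaccharyltransferase (0.66), Bcas2 of the spliceosome (0.65), Gtf2h5 of the repair and transcription factor TFIIH (0.66), N6amt2 (0.59) and 1810037I17Rik (0.95), with log2 differences in parentheses. Exons of Ost4 overlap Agbl5 on the opposite strand over 53.2% of their bases and those of Slc25a35 overlap Rangrf over 31.3%. As the libraries were unstranded, reads of such pairs cannot be told apart there.

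**Figure D1:**
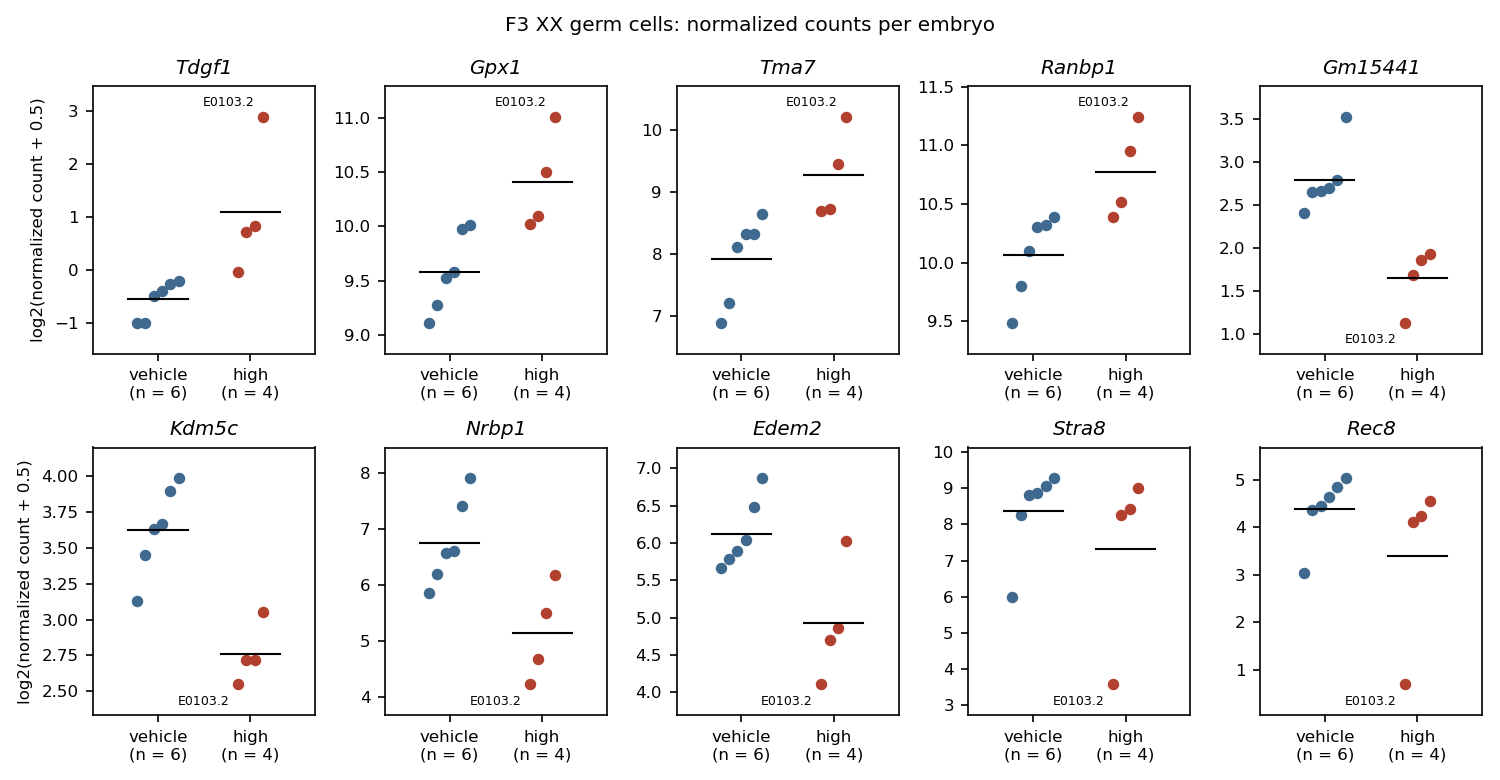
Normalized counts of 10 genes in the 6 vehicle and 4 high-dose F3 XX embryos, as log2(normalized count + 0.5). Points are embryos, lines are group means, and E0103.2 is labelled. Tdgf1, Gpx1, Tma7 and Ranbp1 lie higher, and Gm15441 and Kdm5c lower, in every high-dose embryo than in every vehicle embryo, while Nrbp1, Edem2, Stra8 and Rec8 overlap.

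Among the 12 lower genes ranked the same way, 5 had every high-dose embryo below every vehicle embryo. The choice by p favours such genes here too, and of all genes tested 119 (0.906%) lay below in this way. Kdm5c (chromosome X, 152233198 to 152279102), an X-linked demethylase of lysine 4 of histone H3, had normalized counts of 6.09, 6.07, 7.78 and 5.36 against 8.24 to 15.3 with a median of 12.1. Its highest high-dose embryo was D4190.2, just below the lowest vehicle embryo, D3651.2. The means were 6.33 ± 1.03 (SD, n = 4) against 12.1 ± 2.59 (SD, n = 6), a log2 difference of -0.87 (SE 0.23), with a limma adjusted p of 0.243 (0.0227 to 1 over its alternatives). Slc25a20 (chromosome 9, 108662136 to 108684642), the carrier of acylcarnitines into mitochondria, had 4.49, 4.52, 5.84 and 2.68 against 6.79 to 11.6 with a median of 9.59, a log2 difference of -1.01 (SE 0.27). Ndor1 (chromosome 2, 25244813 to 25255509), a diflavin reductase of iron-sulfur cluster assembly, had 3.69, 6.07, 6.87 and 1.97 against 7.45 to 20.6 with a median of 10.7, a difference of -1.29 (SE 0.36). Abhd16a (chromosome 17, 35089234 to 35102987), a phosphatidylserine lipase, had 4.01, 5.30, 9.73 and 5.498 against 9.93 to 18.2 with a median of 12.8, a difference of -1.13 (SE 0.32). In all 4 of these genes D4190.2 was the high-dose embryo nearest the vehicle range.

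Gm15441 (chromosome 3, 96555768 to 96566801), a noncoding RNA antisense to Txnip, was the fifth, at 2.72, 3.12, 3.32 and 1.69 normalized counts against 4.78 to 10.98 with a median of 5.90. E0103.2 was lowest and vehicle embryo D1344.3 stood above the rest. The log2 difference was -1.13 (SE 0.28), and -0.96 without E0103.2. Txnip itself, a thioredoxin-binding protein named after its values were seen, had 15.4, 16.8, 16.5 and 13.4 against 14.9 to 37.5 with a median of 19.8, with overlapping groups. The 2 genes share 606 exon bases, 36.2% of those of Gm15441, and reads there cannot be told apart in unstranded libraries.

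Of the 7 ranked lower genes whose groups overlapped, Nrbp1, a pseudokinase, had the largest difference, with normalized counts of 25.3, 44.7, 72.3 and 18.3 against 57.6 to 239 with a median of 95.6 and a log2 difference of -1.60 (SE 0.45). D4190.2 lay inside the vehicle range there, and the other 3 high-dose embryos lay below all vehicle embryos. Edem2, which helps send misfolded glycoproteins of the endoplasmic reticulum to degradation, had 28.7, 25.5, 64.4 and 16.8 against 50.4 to 116 with a median of 62.1, a difference of -1.20 (SE 0.31). Pdia4, a disulfide isomerase of the same compartment, had 34.6, 45.2, 70.5 and 31.4 against 62.1 to 134 with a median of 77.2, a difference of -1.03 (SE 0.27). Uqcrc1, a core subunit of respiratory complex III, had 387, 396, 872 and 448 against 696 to 1042 with a median of 924, a difference of -0.84 (SE 0.23). In all 4 genes D4190.2 lay among the vehicle embryos. Fam188b (-1.16), Fkbpl (-1.21) and Zfp821 (-1.02) complete the 12, with log2 differences in parentheses. Fam188b had the smallest adjusted p with array weights, 0.00712, against 0.243 without weights, and its range over the alternatives was 0.00712 to 1.

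Genes of Nodal and activin signalling were measured because the pathway keeps germ cells of the fetal gonad in a pluripotent state and is active in XY germ cells at this age. Tdgf1 (chromosome 9, 110939608 to 110946158), the coreceptor of Nodal also called Cripto, had normalized counts of 1.28, 0.467, 1.14 and 6.91 in the high-dose embryos and 0 to 0.368 with a median of 0.233 in vehicle embryos. Every high-dose embryo lay above every vehicle embryo, E0103.2 by far the highest. These values rest on 8, 3, 10 and 49 reads against 0 to 3 reads. The log2 difference of 1.66 (SE 0.53) depends on the constant of 0.5 added to counts this low, and was 1.06 without E0103.2. Its limma adjusted p was 0.243. Nodal itself had 1.12, 0.779, 0.229 and 1.97 against 0.784 to 2.33 with a median of 0.914, and its antagonists Lefty1 and Lefty2 had 0.961, 0.779, 0.687 and 3.10 against 0.1001 to 1.18 with a median of 0.683 and 0.1602, 0.312, 0.687 and 0.705 against 0.1001 to 0.308 with a median of 0.122. All 3 overlapped between the groups, near the floor. The receptors Acvr2a (0.17) and Acvr2b (-0.0083) showed small log2 differences, and Acvr1b was under the minimum mean and not tested. Of 24 genes of this list tested, Tdgf1 alone was past the looser criterion, and none was without E0103.2. Higher genes were 4.17% and lower genes 0% of the list, against 3.06% and 5.72% of all genes. Without D3526.1, 2 were higher and 0 lower, and with array weights 2 were higher and 1 lower. Smad2, a transcription factor of the pathway, had 69.5, 71.8, 73.1 and 53.7 against 67.6 to 114 with a median of 94.2, a log2 difference of -0.44. The median of the list was -0.0089, against -0.026 for all genes, and 0.014 with upper quartile scaling (0.013 for all genes), and ran from -0.068 without D3402.1 to 0.060 without D3526.1.

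Meiotic genes varied widely within each group. Stra8, the gatekeeper of meiotic entry, had normalized counts of 309, 517, 347 and 11.4 in the high-dose embryos and 62.9 to 620.1 with a median of 459 in vehicle embryos. E0103.2 was lowest of all, and D3526.1 was the lowest vehicle embryo at 62.9. The log2 difference was -1.05 (SE 0.97) with E0103.2 and 0.20 without it. Rec8, a meiotic cohesin looked at after its values were seen, had 16.8, 23.1, 18.3 and 1.13 against 7.72 to 32.1 with a median of 22.7, with the same 2 embryos lowest. Meiob, which binds single-stranded DNA during recombination, had 11.1, 18.1, 8.01 and 1.55 against 0.858 to 30.5 with a median of 8.45, and Sycp2 of the synaptonemal complex had 11.9, 29.4, 12.1 and 2.26 against 2.08 to 28.9 with a median of 16.2. E0103.2 and D3526.1 were again at the bottom of both. Syce2, another component of that complex, ran the other way, at 1776, 1274, 1097 and 1766 against 562 to 1252 with a median of 918, a log2 difference of 0.70 (SE 0.26).

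Over the 31 meiotic genes tested, 1 was higher (Syce2) and 0 were lower past the looser criterion, against 3.06% and 5.72% of all genes. Their median log2 difference was -0.23, against -0.026 for all genes, and turned to 0.19 without E0103.2. Leaving out embryos in turn, it ran from -0.60 without D2204.1 to 0.19 without E0103.2, and the count of lower genes ran from 0 to 3 without D2204.1 or D3526.1. Higher meiotic genes numbered 0 without D1344.3 and without D1344.3 and D1388.3 together. Scaling to the same sum left 0 higher and 2 lower. The median of the meiotic genes in each embryo, relative to the mean of the 10, was 0.12, 0.68, -0.12 and -1.06 in the high-dose embryos and -0.94 to 0.65 in vehicle embryos, D3526.1 lowest. A sample of sorted cells gives 1 value over many cells, so a smaller share of cells in meiosis and less meiotic RNA in each cell cannot be told apart. Sycp3 (0.37), Smc1b (-0.30), Syce1 (-0.0011), Syce3 (0.16), Tex11 (-0.23), Tex12 (-0.033), Tex15 (-0.21), Dmc1 (-0.53, named after its values were seen) and Ccnb3 (-0.36), with log2 differences in parentheses, all overlapped between the groups. Exons of Sycp3 overlap Chpt1 on the opposite strand over 52.2% of their bases.

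Genes that differ between the sexes were taken from F1 and F2 vehicle embryos, 11 XX and 11 XY, so that no F3 embryo took part in the choice. Over 13232 genes tested, 1096 were male-specific (8.28%) and 1087 female-specific (8.21%), at an adjusted p under 0.05 and more than 2-fold. Of 1071 female-specific genes tested in F3, 6 were higher (0.560%) and 78 lower (7.28%) past the looser criterion, against 3.06% and 5.72% of all genes, and their median log2 difference was -0.144. Of 1075 male-specific genes tested, 60 were higher (5.58%) and 28 lower (2.60%), with a median of 0.070. Both lists rested on E0103.2. Without it, 9 female-specific genes were higher and 17 lower with a median of 0.061, and 10 male-specific genes were higher and 27 lower with a median of -0.0033. Of all 13139 genes, 130 were higher and 421 lower in that fit. Scaling to the same sum put the male-specific median at -0.034, where that of all genes was -0.23. It left 16 male-specific genes higher and 51 lower, and 2 female-specific genes higher and 153 lower. Of all genes 77 were then higher and 1712 lower. Array weights gave 68 higher and 66 lower male-specific genes, and 21 and 83 female-specific genes, against 546 and 1030 of all genes. The female-specific median in each embryo, relative to the mean of the 10, was 0.080, 0.22, 0.053 and -0.66 in the high-dose group and -0.36 to 0.25 in the vehicle group. E0103.2 and D3526.1 were again the lowest of their groups, and the other 3 high-dose embryos lay inside the vehicle range. Leaving out other embryos moved these counts too. Lower female-specific genes numbered 45 without D1388.3, 118 without D4190.2 and 19 without D1344.3 and D1388.3. Higher male-specific genes numbered 24 without D1388.3, 33 without D1344.3 and 8 without both.

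**Figure D2:**
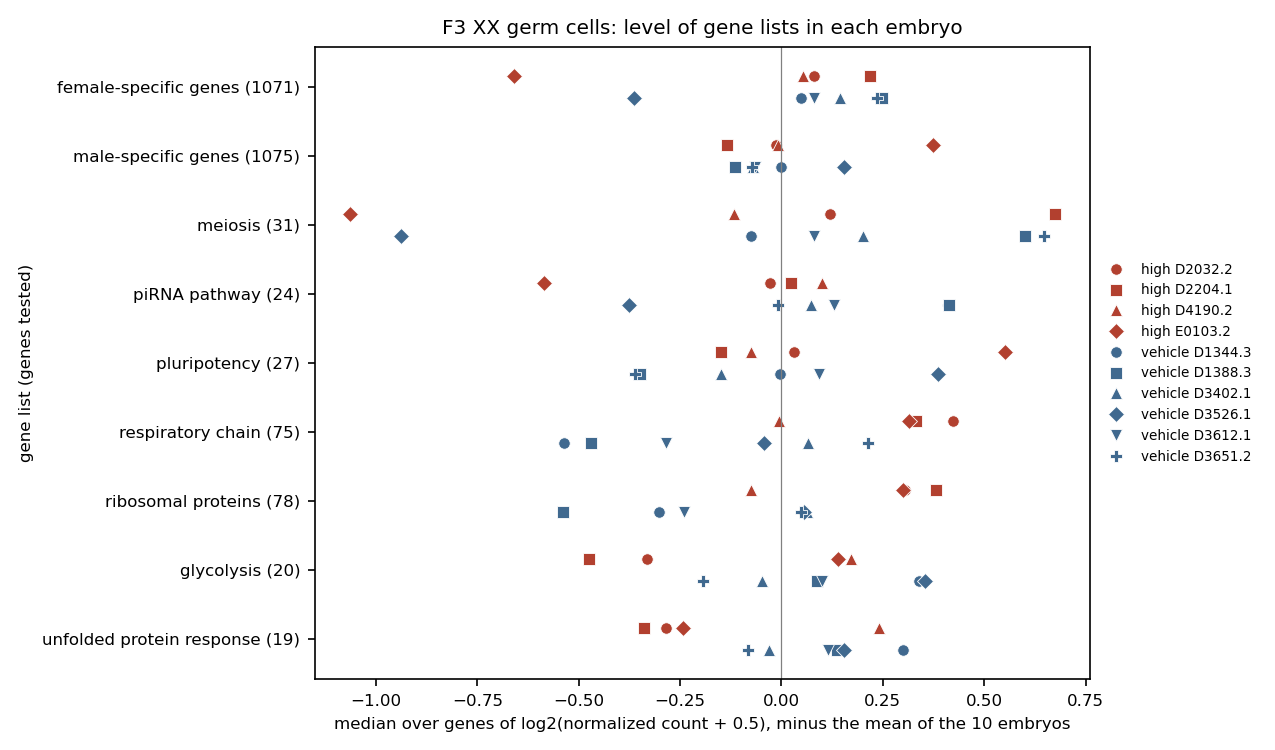
Median over the genes of 9 lists of log2(normalized count + 0.5) in each of the 10 embryos, relative to the mean of the 10, with the number of genes tested in parentheses. Red symbols are high-dose embryos and blue symbols vehicle embryos. E0103.2 and D3526.1 lie lowest for the female-specific, meiosis and piRNA lists, and D1344.3 and D1388.3 lowest for the respiratory chain and ribosomal protein genes.

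Of 27 pluripotency genes tested, 4 were higher (14.8%) and 0 lower, against 3.06% and 5.72% of all genes, and their median log2 difference was 0.18, against -0.026 for all genes. Dppa5a, a small RNA-binding protein of pluripotent and germ cells, had normalized counts of 2874, 2472, 2042 and 4783 against 974 to 2588 with a median of 1728, a log2 difference of 0.86 (SE 0.26). Dppa3, also called Stella, which guards DNA methylation in the egg and early embryo, had 2451, 2343, 1568 and 2489.8 against 960.1 to 1716 with a median of 1605, a difference of 0.64 (SE 0.22). Above the vehicle range lay 2 high-dose embryos for Dppa5a and 3 for Dppa3, and D4190.2 lay within it for both. The transcription factor Tfcp2l1 (15.5, 14.8, 11.2 and 23.3 against 7.90 to 17.9 with a median of 9.44) and L1td1 (22.1, 19.6, 14.5 and 52.6 against 5.91 to 33.0 with a median of 13.2) were the other 2, where only E0103.2 lay above the highest vehicle embryo, D3526.1. The number of higher genes ran from 1 without E0103.2 or D1388.3 to 6 without D4190.2, and was 0 without D1344.3 and D1388.3 together. Pou5f1, whose promoter drives the sorted EGFP and which was named after its values were seen, had 45.2, 42.2, 75.6 and 139 against 33.4 to 88.6 with a median of 57.6, with overlapping groups. Among 15 genes of germ cell identity, Dppa3 was the only one past the criterion, in the higher direction, and 0 were without E0103.2, D1344.3 or D1388.3. Their median was 0.088, ran from -0.044 without D2032.2 to 0.18 without D4190.2 and was -0.0034 without D3402.1. It was -0.11 after scaling to the same sum, which moved that of all genes to -0.23. Nanos3, which protects early germ cells, had 81.7, 54.7, 68.7 and 164 against 29.7 to 101 with a median of 46.9.

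Of 24 genes of the piRNA pathway and transposon silencing, 0 were higher and 3 lower (12.5%), against 3.06% and 5.72% of all genes, with a median log2 difference of -0.33. Tex19.1, a repressor of retrotransposons in germ cells, had normalized counts of 90.2, 79.9, 188 and 73.9 against 144 to 268 with a median of 185, a log2 difference of -0.91 (SE 0.31). Tdrd7, a Tudor protein of germ granules, had 12.02, 11.99, 9.38 and 2.54 against 6.98 to 21.3 with a median of 14.4, and E0103.2 stood far below the other high-dose embryos. Piwil4, the nuclear PIWI protein of XY germ cells, had 0.641, 1.56, 1.49 and 0.423 against 1.23 to 3.10 with a median of 2.18. In Tex19.1, D4190.2 lay with the vehicle embryos and the other 3 high-dose embryos lay below them. The median moved to -0.093 without E0103.2, and the number of lower genes ran from 1 to 5 without D4190.2 and was 1 without D1344.3 and D1388.3 together.

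Genes that set chromatin marks moved little as lists. None of 16 genes of DNA methylation and demethylation was past the looser criterion, and Dnmt1, the maintenance methyltransferase, had normalized counts of 53.5, 55.6, 52.6 and 55.3 against 49.2 to 57.1 with a median of 52.7. Of 28 genes of Polycomb and related complexes, Cbx3, a heterochromatin protein, was higher at 309.6, 247, 173 and 353 against 126 to 190.2 with a median of 179.6, and Ehmt2, a methyltransferase of lysine 9 of histone H3, was lower at 8.65, 9.81, 18.1 and 5.07 against 12.4 to 18.2 with a median of 16.4. Each was 3.57% of the list, against 3.06% of all genes higher and 5.72% lower. The groups overlapped in both through D4190.2, and neither was past the criterion without E0103.2 or D2032.2. Higher genes of the list ran from 0 without D2032.2 or E0103.2 or D1344.3 to 4 without D4190.2, and 0 were higher and 0 lower without D1344.3 and D1388.3 together. The medians of the lists were -0.067 and -0.052, against -0.026 for all genes. With 1 embryo left out the first ran from -0.12 without D2032.2 to 0.052 without E0103.2 and the second from -0.10 without D3651.2 to 0.0047 without D2204.1.

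Of 30 imprinted genes tested, 2 were higher and 2 lower, 6.67% each against 3.06% and 5.72% of all genes, with a median log2 difference of -0.011 that was 0.025 with upper quartile scaling (0.013 for all genes) and ran from -0.13 without D2204.1 to 0.028 without D4190.2. Impact, a paternally expressed regulator of the translation kinase GCN2, had normalized counts of 21.5, 16.7, 10.3 and 28.9 against 6.43 to 14.5 with a median of 11.02, a log2 difference of 0.83 (SE 0.32). Mcts2, a paternally expressed retrogene, had 62.0, 55.1, 42.9 and 78.7 against 29.4 to 49.4 with a median of 40.4. Dlk1, a paternally expressed Notch-like ligand, had 2.08, 1.40, 3.89 and 0.282 against 1.10 to 12.8 with a median of 5.46, and Gnas, the stimulatory G protein subunit, had 59.9, 57.6, 147 and 55.7 against 75.8 to 181 with a median of 122. All 4 overlapped between the groups, and 0 of the list were past the criterion without E0103.2. Lower genes ran from 0 without D2204.1 or E0103.2 or D3651.2 to 4 without D4190.2, and 1 was higher and 1 lower without D1344.3 and D1388.3 together. Exons of Gnas overlap noncoding Nespas on the opposite strand over 8.83% of their bases and Gm20721 over 13.1%. Phlda2, a growth-restraining imprinted gene, had 1889, 1308, 1254 and 1641 against 568 to 1453 with a median of 874.

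Of 35 targets of the aryl hydrocarbon receptor and genes of the antioxidant response, 1 was higher (Gpx1, above) and 1 lower (2.86% each), against 3.06% and 5.72% of all genes. The median log2 difference of 0.16 ran from 0.033 without E0103.2 to 0.21 without D4190.2 and was -0.072 after scaling to the same sum, where that of all genes was -0.23. The lower gene was Arnt (chromosome 3, 95434367 to 95497240), the partner with which the receptor binds DNA, at normalized counts of 4.49, 4.21, 4.12 and 3.38 against 4.52 to 9.76 with a median of 7.89. Every high-dose embryo lay below every vehicle embryo, and D2032.2 only just. The log2 difference was -0.74 (SE 0.22), with a limma adjusted p of 0.243 (0.0515 to 1 over its alternatives). Gsto1, a glutathione transferase named after its values were seen, had 24.5, 21.7, 23.5 and 32.8 against 13.4 to 20.1 with a median of 17.9, all high-dose embryos above, at a log2 difference of 0.57 (SE 0.21) that is under 1.5-fold. The abundant Prdx1, a peroxiredoxin, had 2927, 2718, 1887 and 2806 against 1435 to 2093 with a median of 1907, and D4190.2 lay within the vehicle range. Gstp1 (0.38), Gstp2 (0.39) and Gpx4 (0.23) had log2 differences above 0 with overlapping groups. The counts of this list ran from 1 to 4 without D4190.2 for higher genes and from 1 to 2 without D4190.2 for lower genes. There were 0 lower genes without D1344.3 and D1388.3 together, and 5 after scaling to the same sum.

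Of 36 p53 targets and BCL2 family genes, Bak1, a pore-forming inducer of apoptosis, was higher at normalized counts of 1.12, 1.09, 0.572 and 2.11 against 0.205 to 0.735 with a median of 0.392, and Bcl2l1, an inhibitor of apoptosis, was lower at 1.76, 2.65, 2.06 and 3.81 against 2.87 to 13.8 with a median of 5.66. Each was 2.78% of the list, against 3.06% of all genes higher and 5.72% lower. Both rest on few reads, with 7, 7, 5 and 15 reads of Bak1 in the high-dose embryos, and both overlapped between the groups. Exons of Bak1 overlap Ggnbp1 on the opposite strand over 25.5% of their bases. The median of the list was 0.0018 and ran from -0.022 without D3402.1 to 0.052 without D2032.2, and without D1344.3 and D1388.3 together 2 genes were higher and 0 lower. With 1 embryo left out, higher genes ran from 1 to 2 and lower genes from 1 to 3 without D4190.2. Mdm2, a p53 target that degrades p53, had 61.5, 69.6, 73.5 and 75.4 against 59.2 to 92.8 with a median of 76.5.

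Cell cycle genes held 0 higher and 2 lower (4.35%) of 46 tested, against 3.06% and 5.72% of all genes, with a median log2 difference of -0.10. Plk1, a kinase of mitotic entry, had normalized counts of 16.99, 17.3, 52.3 and 21.7 against 36.1 to 77.1 with a median of 56.7, a log2 difference of -1.12 (SE 0.42). Cdc20, an activator of the anaphase-promoting complex, had 86.5, 60.3, 176 and 97.7 against 127 to 224 with a median of 183, a difference of -0.81 (SE 0.34). In both genes 3 high-dose embryos lay below the vehicle range and D4190.2 inside it. Pcna, the sliding clamp of DNA replication, lay the other way without overlap, at 811, 690.2, 705 and 1025 against 416 to 645 with a median of 585, a difference of 0.53 (SE 0.19) that is under 1.5-fold. Ccnb1 (0.011) and Ccnb2 (0.35) overlapped. The number of lower genes ran from 1 without D2032.2 or D2204.1 to 4 without D4190.2, and was 0 without D1344.3 and D1388.3 together.

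Nuclear genes for subunits of the respiratory chain and ATP synthase, a list added after the data were seen, had a median log2 difference of 0.45 over 75 genes, against -0.026 for all genes. Of these 75, 12 were higher (16%) and 2 lower (2.67%) past the looser criterion, against 3.06% and 5.72% of all genes. A difference above 0 was found in 64 of them and in 6185 of all 13139 genes. These genes were named after their values were seen. Ndufa12 of complex I had normalized counts of 992, 796, 621 and 1108 against 288 to 742 with a median of 530.0, and Cox7c of complex IV had 2100.1, 1984, 1376 and 2206 against 752 to 1699 with a median of 1238. Uqcr10 (0.70) and Atp5g1 (0.65) had similar log2 differences, while the larger subunits Uqcrc1 (-0.84) and Ndufv1 (-0.61) were the 2 lower genes. The median of the list in each embryo, relative to the mean of the 10, was 0.42, 0.33, -0.0054 and 0.32 in the high-dose embryos and -0.54 to 0.21 in vehicle embryos. D1344.3 and D1388.3 were lowest, and D4190.2 lay inside the vehicle range. The number of higher genes ran from 3 without D1344.3 to 35 without D4190.2, and was 0 with D1344.3 and D1388.3 both left out, where the median was 0.30. Scaling to the same sum gave 0 higher and 7 lower genes and a median of 0.22, where that of all genes was -0.23.

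The 78 genes of cytosolic ribosomal proteins, added in the same way, had a median log2 difference of 0.38, and 77 of them had a difference above 0. Past the looser criterion were 2 (2.56%, against 3.06% of all genes), both higher, Rpl37 (1380.2, 1377, 1099.8 and 1615 normalized counts against 651 to 1189 with a median of 947) and Rpl38 (752, 721, 592 and 1032 against 329 to 757 with a median of 520.0). The groups overlapped in both genes, which were named after their values were seen. D1388.3 was the lowest embryo of the list at -0.54 relative to the mean of the 10, and the high-dose embryos lay at 0.31, 0.38, -0.074 and 0.30. The count ran from 0 without E0103.2 or D1344.3 or D1388.3 to 18 without D4190.2, and was 0 without D1344.3 and D1388.3 together. After scaling to the same sum it was 0, with a median of 0.14. With array weights, 48 of the 75 respiratory and 41 of the 78 ribosomal genes were among the 1191 calls, which were 9.06% of all genes. Transcripts of both lists are short, with median lengths of 606 and 640.5 bases against 1696 for all genes tested. Adjusted for length and GC content, an alternative chosen after the data were seen, the medians were 0.39 and 0.32, and 0.0038 for all genes. Higher genes then numbered 7 in the respiratory and 1 in the ribosomal list.

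Of 20 genes of glycolysis, 0 were higher and 3 lower (15%) past the looser criterion, against 3.06% and 5.72% of all genes, with a median log2 difference of -0.26. Gpi1, which isomerises glucose 6-phosphate, had normalized counts of 55.6, 58.4, 113 and 71.8 against 91.2 to 199.7 with a median of 111, and the aldolase Aldoc had 9.61, 5.45, 11.8 and 4.09 against 10.3 to 19.4 with a median of 13.6. Tpi1, triosephosphate isomerase, had 33.8, 36.4, 71.3 and 52.7 against 62.3 to 92.1 with a median of 70.5. D4190.2 lay within the vehicle range in each. Eno1, an enolase, had 118, 109.8, 398 and 381 against 212 to 513 with a median of 337, where D2032.2 and D2204.1 lay below all vehicle embryos and the other 2 high-dose embryos within them. Gapdh (-0.41) and Aldoa (-0.44) overlapped. The median of the list was -0.41 without E0103.2, and the number of lower genes ran from 1 without D2032.2 or D2204.1 or D1344.3 to 7 without D4190.2 and was 0 without D1344.3 and D1388.3 together.

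Of 19 genes of the integrated stress and unfolded protein response, 0 were higher and 2 (10.5%) were lower (Pdia4, above, and Hspa5), against 3.06% and 5.72% of all genes. A log2 difference below 0 was found in 17 of them and in 6922 of all 13139 genes, and the median was -0.22. Hspa5, the main chaperone of the compartment, had normalized counts of 106, 143, 167 and 129 against 159 to 279 with a median of 203, a log2 difference of -0.62 (SE 0.27). Its 4 high-dose values overlapped the vehicle range only through D4190.2. Of 23 immediate early and heat shock genes, 0 were higher and 2 lower (8.70%), with a median of -0.32. These were Jund, at 4.65, 4.21, 12.5 and 5.92 against 8.36 to 30.4 with a median of 15.8, and Junb, at 0.3205, 0.623, 0.458 and 0.141 against 0.411 to 3.11 with a median of 1.12, both transcription factors of the AP-1 family. The abundant chaperone Hspa8 had 1950.5, 2116, 2816 and 2523 against 2804 to 3377 with a median of 3032, and Hsp90aa1 had 4076, 5398, 3351 and 3719 against 3074 to 4003 with a median of 3532. Exons of Jund overlap noncoding Gm11175 on the opposite strand over 52.6% of their bases. The lower genes ran from 1 without D2032.2 or E0103.2 or D1344.3 to 4 without D4190.2 in the first list and from 0 without E0103.2 or D1344.3 or D1388.3 to 3 in the second. They numbered 1 and 0 without D1344.3 and D1388.3 together.

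Higher and lower genes differed in transcript length and base composition. Among genes with a known length, 98.6% of those tested, the median transcript was 842 bases long for higher genes, 1795 for lower genes and 1696 for all, and the median GC content was 49.4%, 54.8% and 51.0%. Divided into eighths by length, genes of 60 to 631 bases had a median log2 difference of 0.10, with 89 higher and 79 lower, and genes of 1698 to 2273 bases had -0.14, with 24 higher and 174 lower. By GC content, the medians ran from 0.058 in the lowest eighth to -0.11 in the highest. D1344.3 and D1388.3 were the lowest embryos for the shortest genes, at -0.14 each relative to the mean of the 10, and the highest for genes of 1698 to 2273 bases, at 0.17 and 0.18. For the latter, vehicle embryos D3402.1, D3526.1 and D3651.2 lay near 0, at -0.013, 0.0046 and -0.019, and D3612.1 lay at 0.091. The high-dose embryos lay at -0.11, -0.097, 0.041 and -0.11 there. After each embryo's values were adjusted for length and GC content, an alternative chosen after the data were seen, 388 genes were higher and 575 lower, of which 252 and 486 were also past the criterion before. RNA quality was not measured here, and its part in the result was not tested.

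**Figure D3:**
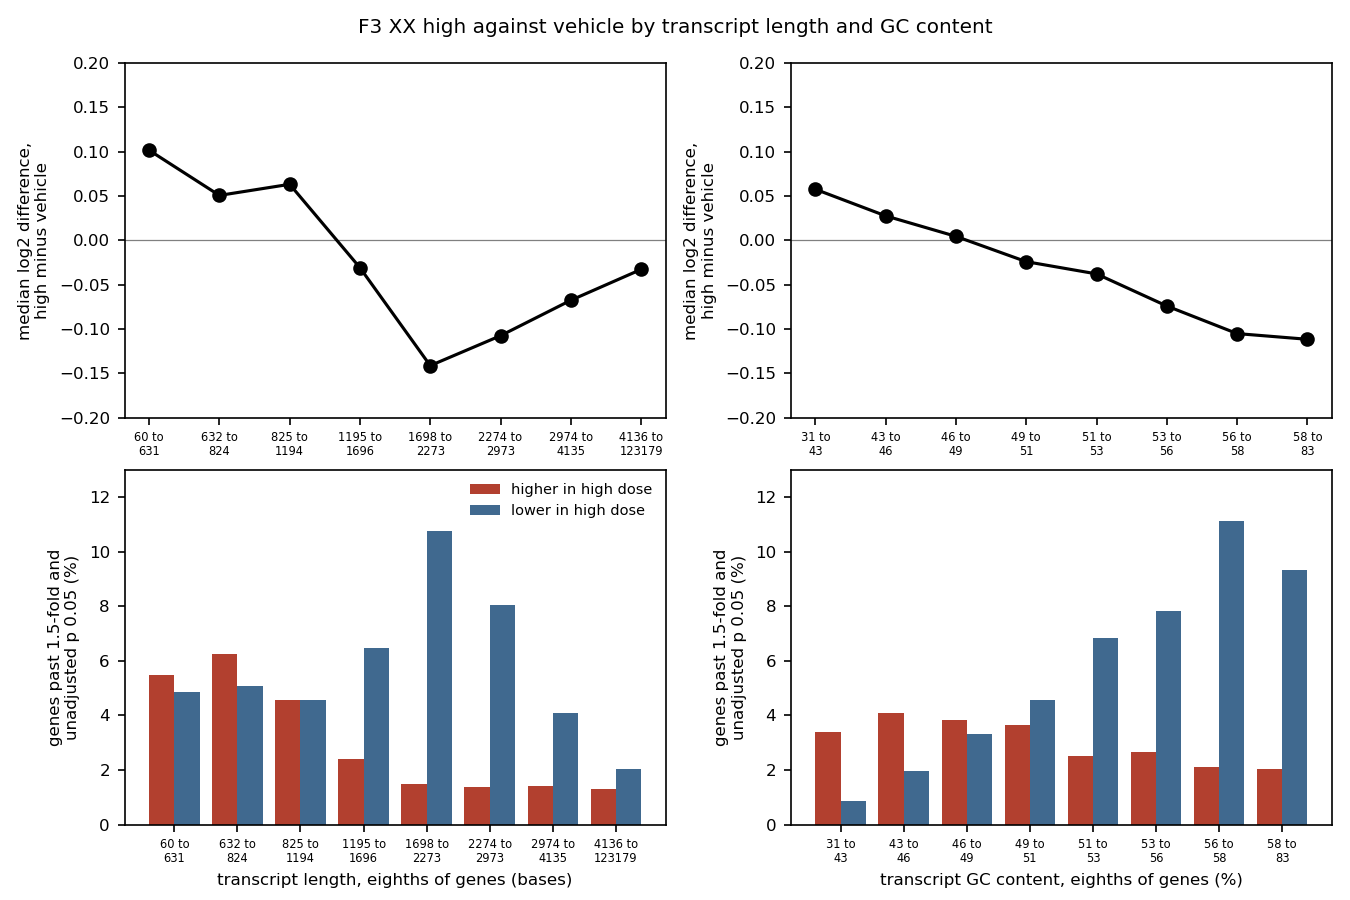
Upper panels show the median log2 difference, high minus vehicle, in eighths of genes by transcript length in bases and by GC content in percent, and lower panels the percent of genes in each eighth past 1.5-fold and an unadjusted p of 0.05. The median was 0.10 in the shortest eighth and -0.14 in the fifth, and it ran from 0.058 to -0.11 from low to high GC content.

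Difference and level of expression also went together. Genes tested were divided by mean count into 4 sets. In the set with the highest mean, 187 were higher and 127 lower, with a median log2 difference of 0.13. In the next 3 sets by falling mean the counts were 68 and 219, 64 and 259, and 83 and 147, with medians of -0.078, -0.10 and -0.037. Of 536 genes on the X chromosome, 10 were higher and 23 lower with a median of 0.032. On the autosomes 386 were higher and 720 lower of 12474, with a median of -0.029.

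Signals to and from germ cells were measured by 4 lists. Of 27 genes of the retinoic acid and BMP response and oogenic factors, 0 were higher and 2 lower (7.41%), against 3.06% and 5.72% of all genes, with a median log2 difference of -0.17. Msx1, a homeobox target of BMP, had normalized counts of 8.33, 9.50, 7.44 and 1.97 against 6.62 to 29.9 with a median of 15.8, a log2 difference of -1.25 (SE 0.43), and Rara, a retinoic acid receptor, had 3.37, 2.02, 3.09 and 0.282 against 2.71 to 5.66 with a median of 3.33. E0103.2 was far lowest in both, and without it the differences were -0.79 and -0.28. The lower genes of the list ran from 1 without E0103.2 or D1344.3 or D3526.1 to 3 without D2032.2 or D3612.1, with 1 without D1344.3 and D1388.3 together.

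Of 21 genes of male germ cell fate and the FGF response, Spry2, a feedback inhibitor of FGF signalling, was higher at 3.20, 2.65, 1.37 and 4.65 normalized counts against 1.10 to 1.72 with a median of 1.20, and Piwil4 was lower as above. Each was 4.76% of the list, against 3.06% of all genes higher and 5.72% lower. The groups overlapped in both, and 0 of the list were past the criterion without E0103.2, D2032.2, D1344.3, D1388.3 or D3402.1. Without D3526.1, 3 of the list were higher and 1 lower. Lhx1, a transcription factor of XY germ cells, had 1.12, 1.25, 1.49 and 1.27 against 0.339 to 1.59 with a median of 0.844, with overlapping groups, and the median of the list was -0.11. That median ran from -0.14 without D2032.2 to 0.014 without D2204.1, and was 0.0059 without D4190.2 and 0.0024 with array weights. Of 27 genes of canonical Wnt signalling, 1 was higher (3.70%) and 2 lower (7.41%), against 3.06% and 5.72% of all genes. The median of the Wnt list was -0.032, and 0.010 with upper quartile scaling (0.013 for all genes). It ran from -0.14 without D2032.2 to 0.029 without E0103.2. The lower genes were Nkd1, an inhibitor of the pathway, at 2.56, 3.43, 8.24 and 0.705 against 2.45 to 20.96 with a median of 10.8, and Frat1, an inhibitor of GSK3, at 0.641, 0.467, 0.343 and 0.423 against 0.666 to 2.00 with a median of 1.09. Frat1 was below in every high-dose embryo, on 4, 3, 3 and 3 reads. Fzd2, a Wnt receptor named after its values were seen, also lay below without overlap, at 1.28, 0.935, 1.602 and 1.27 against 1.66 to 2.16 with a median of 1.96, and was under 1.5-fold. Lgr4, a receptor for R-spondins, was the higher gene, at 13.8, 11.7, 6.75 and 14.5 against 3.88 to 11.7 with a median of 5.66. Lgr4 and Nkd1 overlapped between the groups. The Wnt counts ran from 0 without E0103.2 to 3 without D4190.2 for higher genes and from 2 to 4 without D3526.1 for lower genes, and were 0 and 2 without D1344.3 and D1388.3 together.

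Chemokines and cytokines rested on few reads. Of 13 tested, 3 were higher (23.1%) and 1 lower (7.69%), against 3.06% and 5.72% of all genes, and 22 of the 35 symbols tried were in the table. The median log2 difference of 0.31 ran from 0.13 without D2032.2 to 0.34 without D3612.1 when 1 embryo was left out, and was 0.14 without D2204.1 and 0.13 without E0103.2. Ccl3, a chemokine, had normalized counts of 6.09, 4.21, 1.14 and 1.13 against 0 to 2.48 with a median of 0, on 38, 27, 10 and 8 reads against 0 to 19. Ccl4 had 2.24, 4.05, 2.06 and 2.11 against 0 to 2.77 with a median of 0.426, and Ccl12 had 0.481, 0.779, 1.14 and 2.40 against 0 to 0.653 with a median of 0. Ccr7, a homing receptor, was the lower gene at 0.1602, 0, 0.229 and 0 against 0.131 to 1.23 with a median of 0.647. The groups overlapped in all 4. Ccl2, Ccl6 and Ccl7 were under the minimum mean, Ccl17 had 0 reads in all 10 embryos, and Ccl25 (0.096) and Ccl28 (0.39) had overlapping values. Higher genes of the list ran from 2 without D2204.1 or D1388.3 or D3526.1 to 3 and lower genes from 0 without E0103.2 or D1344.3 or D3526.1 to 1. Ccl3, Ccl4 and Ccl12 had 0 reads in D1388.3 and D3526.1, the embryos with the least of the macrophage markers given below. Ccl3 and Ccl12 also had 0 reads in D3612.1 and D3651.2, where the macrophage sums were 21.5 and 14.6. High-dose embryo D4190.2, with a sum of 12.4, had 10 reads of each. The part of macrophage RNA in these values was not tested.

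Markers of other cells that a sort could hold were summed in each embryo. Of 16 erythroid symbols tried, 10 were in the table, and their summed normalized counts were 5.93, 4.67, 5.49 and 1475 in the high-dose embryos and from 4.29 to 6.31 in vehicle embryos with a median of 5.17. E0103.2 held nearly all of it, with 4257 reads each of Hba-a1 and Hba-a2, whose values were identical in all 10 embryos, 1262 of Hba-x and 494 of Hbb-y. Hba-x and Hbb-y had 0 reads in the other 9 embryos, and Alas2, an enzyme of heme synthesis in red cells, had 0 reads in E0103.2. Hba-x and Hbb-y were past the looser criterion, and 0 erythroid genes were without E0103.2. They were 25% of the 8 erythroid genes tested, against 3.06% of all genes higher. Of 8 mast cell genes tried, 4 were summed, leaving out Kit, which germ cells make too. The sums were 24.8, 0, 0 and 0 in the high-dose embryos and from 0 to 0.401 in vehicle embryos with a median of 0, led by Cpa3 at 13.3 and Cma1 at 11.2 in D2032.2 and 0 in all others.

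Macrophage genes, 18 of 18 in the table with C1qb the most abundant, summed to 52.4, 42.1, 12.4 and 29.2 in the high-dose embryos and from 2.30 to 46.3 in vehicle embryos with a median of 18.0. D1388.3 and D3526.1 had the least, with 0 reads of C1qb, and the groups overlapped. Of 13 tested, Aif1 was higher, at 2.40, 2.34, 0.801 and 2.40 against 0 to 1.66 with a median of 0.688, and the median log2 difference of the list was 0.72 and ran from 0.35 without D1388.3 to 1.09 without D4190.2. Higher macrophage genes numbered 0 without E0103.2, D2032.2, D2204.1, D1388.3 or D3526.1, 2 without D1344.3, D3402.1 or D3612.1 and 3 without D4190.2. Sertoli cell genes, 11 of 11 in the table and led by Aard, summed to 27.4, 21.2, 26.7 and 85.8 in the high-dose embryos and from 16.9 to 37.9 in vehicle embryos with a median of 21.6. The sum in E0103.2 came from Aard (65.4) and Cst8 (18.3), and its values of the defining Sox9, Amh and Dhh were 0. Cst8 was higher past the criterion, and not without E0103.2, D2032.2, D3526.1 or D3612.1. Aif1 was 7.69% of the macrophage and Cst8 10% of the Sertoli genes tested, against 3.06% of all genes higher. Pregranulosa genes, 14 of 15 tried and led by Nr0b1, summed to 13.6, 7.48, 8.24 and 21.1 in the high-dose embryos and from 6.16 to 11.8 in vehicle embryos with a median of 8.72, with 0 of 9 tested past the criterion. The defining Foxl2 was not among the genes of the table. Wt1 and Nr5a1 were at 9 and 4 reads in E0103.2, the most of the 10 embryos, against 0 to 4 and 0 to 2 in the others.

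Stromal genes, 17 of 17 and led by Dcn, summed to 2.40, 4.21, 5.26 and 8.18 in the high-dose embryos and from 2.67 to 37.5 in vehicle embryos with a median of 3.78. D1388.3 held the highest values, 14.2 of Dcn and 5.81 of Lum, and 0 of 7 tested were past the criterion. Endothelial genes, 10 of 13 and led by Pecam1, summed to 40.1, 31.8, 69.9 and 54.3 in the high-dose embryos and from 44.6 to 77.8 in vehicle embryos with a median of 57.3, and of 6 tested 5 had a log2 difference below 0, with a median of -0.27. Flt1 alone was past the criterion, higher at 0.801, 0.623, 0.458 and 0.987 against 0.1001 to 0.523 with a median of 0.228. Epithelial genes, 15 of 20 and led by S100a11, summed to 96.9, 129, 102 and 144 in the high-dose embryos and from 92.1 to 136 in vehicle embryos with a median of 115, and of 12 tested 9 had a log2 difference above 0, with a median of 0.10, -0.021 without E0103.2, or -0.11 after scaling to the same sum, where that of all genes was -0.23. Krt18, a keratin, alone was past the criterion, lower at 8.65, 13.7, 25.2 and 8.60 against 18.4 to 32.2 with a median of 23.3. Fetal Leydig genes, 8 of 10 and led by Insl3, summed to 3.85, 4.21, 2.86 and 7.47 in the high-dose embryos and from 1.90 to 4.88 in vehicle embryos with a median of 3.08, with 0 of 4 tested past the criterion. Exons of Insl3 overlap Jak3 on the same strand over 64.8% of their bases. Cyp17a1 had at most 1 read and Cyp11a1 at most 3 in any embryo. Neural genes, 7 of 10 and led by Elavl4, summed to 12.5, 12.8, 10.6 and 11.6 in the high-dose embryos and from 10.01 to 17.4 in vehicle embryos with a median of 11.1, with Sox10 at 0 in all embryos, Stmn2 higher and Elavl4 lower. Stmn2, Elavl4, Krt18 and Flt1 overlapped between the groups, and none was past the criterion without E0103.2. Without D2032.2, Krt18 and Flt1 were not past it either. Nor was Flt1 without D1388.3, D3526.1 or D3612.1, or Stmn2 without D1388.3, D3402.1 or D3651.2. Flt1 was 16.7% of the endothelial and Krt18 8.33% of the epithelial genes tested, and Stmn2 and Elavl4 were 16.7% each of the neural genes. Of all genes 3.06% were higher and 5.72% lower. The part of these cells in the differences above was not tested.

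The same 6 vehicle embryos served the other F3 doses, so differences between doses are set side by side without a test. At 0.2 mg/kg-day (2 XX embryos) limma called 0 genes, with 1677 at an unadjusted p under 0.05 and 746 higher and 750 lower past the looser criterion. At 0.033 mg/kg-day (4 XX embryos) it called 0, with 527, 234 and 158. No other tool was run on these. The log2 difference of Tdgf1 was 1.21 at 0.033, 2.74 at 0.2 and 1.66 at 2 mg/kg-day. For Gpx1 it was 0.49, 0.64 and 0.83, and for Tma7 0.95, 0.29 and 1.35. Kdm5c had -0.25, 0.20 and -0.87, and Gm15441 -0.44, 0.13 and -1.13. Stra8 lay lower at each dose, by -1.69, -3.11 and -1.05, the last of which rested on E0103.2.

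In XY germ cells of the same generation and dose, 3 embryos against 6, limma called 0 genes, with 116 at an unadjusted p under 0.05. Of the dams of the 10 XX embryos, 7 also gave an XY embryo to these groups. The difference between the XX and XY contrasts was tested in the same fit, which did not pair embryos of 1 dam. It called 0 genes, with 699 at an unadjusted p under 0.05 and a smallest adjusted p of 0.756, and no other tool was run. For Tdgf1 the XY difference was -0.069 and XX minus XY was 1.73 (limma adjusted p = 0.756). For Nrbp1 they were -0.047 and -1.56 (limma adjusted p = 0.756). Tdgf1 normalized counts in XY embryos were 16.3 ± 4.60 (SD, n = 3) at the high dose and 18.3 ± 8.93 (SD, n = 6) in vehicle, all above the 6.91 of E0103.2.

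Against the earlier generations, the F3 XX difference was tested in a fit of all 24 groups. F1 embryos were themselves in the womb of dosed dams, and their dosing window differed, ending at E11.5, so generation and dosing cannot be told apart. F3 minus F1 gave 0 calls with 272 genes at an unadjusted p under 0.05, and F3 minus F2 gave 0 with 319, in limma, the only tool run. The high-dose contrast itself called 6 genes in F1, with 1926 at an unadjusted p under 0.05, and 0 in F2, with 243. The XX high-dose groups held 5 embryos in F1 and 3 in F2, with 5 and 6 vehicle embryos. Log2 differences in F1 and F2 were 0.60 and -0.018 for Gpx1, 1.03 and 0.55 for Tma7, and 1.41 and -0.83 for Tdgf1. For Kdm5c they were -0.22 and -0.57, for Nrbp1 -1.28 and -0.44, and for Arnt -0.10 and -0.86. Differences of these sizes between generations did not pass the adjusted threshold.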

How the data were processed

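The deposited table held 1 column per embryo, 101 in all, for 15423 genes. The authors used Trim Galore for trimming, STAR for alignment (GRCm38/mm10), Rsubread for counting over exons and edgeR for TMM normalization. The values of the table, called signal as deposited by the authors, are counts scaled for library size and by these factors, and are called normalized counts here. In each embryo the values were whole multiples of 1 step, from which reads were recovered. For D1388.3 and 1 XY embryo the step lay too near 0.1 for the check to tell it from rounding, so count-based tests left both out, and later ones kept D1388.3. 19 symbols were written as dates.

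Genes with a mean of at least 0.5 normalized counts over the 33 F3 embryos were fitted as log2(value + 0.5) with limma 3.58.1 (eBayes with trend) in R 4.3.3, by sex and dose (8 groups), and p-values were adjusted over all genes tested (Benjamini-Hochberg). The fit was also run on simulated data, and the outcome is not reported here. Reads were tested with edgeR 4.0.16 and DESeq2 1.42.0, and tables were made with Python 3.11.15. Depth was 6518551 to 8708774 reads, and 1 read was 0.1001 to 0.1602 normalized counts. Transcript length, GC content and exon overlaps came from GENCODE, which gave a length for 98.5% of genes, and printed positions from RefSeq.

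Alternatives were other added constants, filters, embryos in the fit, rescaling to the upper quartile, dam as a block, array weights, the count tests and leaving out each embryo. The same sum per embryo, adjustment for length and GC content, leaving out D1344.3 and D1388.3 together, count tests with D1388.3 kept and the lists of respiratory and ribosomal genes were chosen after seeing the data. Genes were named if the study names them, if they were among 12 per direction with the smallest p and a mean of at least 5, if a list member was past 1.5-fold at an unadjusted p under 0.05, or if they were among the most abundant of a list. Others are said to be named after their values were seen. The members and the lists were chosen with earlier results of these data known. Some results of single genes and of a list are not reported here.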

Additional observations from a re-analysis of the deposited data

Results flagged for a closer look

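In 51 of 448 groups of values of 4 or 6 embryos, the highest or lowest embryo stood far from the others, judged on the log2 scale by its gap to the nearest embryo over the range of the group. Chance does this in about 1 in 20 groups. Values of different genes in an embryo are not independent.

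Of these, 12 were in high-dose embryo E0103.2, with normalized counts of 600.1 for Hba-a1, 600.1 for Hba-a2, 178 for Hba-x, 8.60 for Hbb-b1, 8.60 for Hbb-b2, 69.6 for Hbb-y, 1.97 for Msx1, 1.13 for Rec8, 53.7 for Smad2, 8.46 for Stmn2, 11.4 for Stra8 and 2.54 for Tdrd7. Its globin transcripts were high, and Stra8, Rec8, Msx1, Tdrd7 and Smad2 were low. In high-dose embryo D4190.2 there were 6, with 0.801 for Aif1, 1568 for Dppa3, 147 for Gnas, 0.114 for Hsd3b1, 1887 for Prdx1 and 1.602 for Tyrobp. D2032.2 had 5, with 0 for Acta2, 0.641 for Ccl7, 11.2 for Cma1, 13.3 for Cpa3 and 0.3205 for Th, and D2204.1 had 3, with 4.05 for Ccl4, 0.156 for Ddx3y and 0.156 for Hsd17b3.

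Among vehicle embryos, D3526.1 had 11, with 0.123 for Ccnb3, 27.4 for Dmc1, 2.33 for Nodal, 3.92 for Nr0b1, 16.1 for Plvap, 7.72 for Rec8, 65.6 for Slc22a18, 62.9 for Stra8, 2.08 for Sycp2, 17.9 for Tfcp2l1 and 223 for Trim28. Its Stra8, Rec8, Dmc1, Sycp2 and Ccnb3 were the lowest of the vehicle group. D1388.3 had 6, with 35.7 for Aard, 0.200 for Ccl28, 2.70 for Col1a2, 14.2 for Dcn, 5.81 for Lum and 0.1001 for Tyrobp, and D1344.3 had 5, with 49.1 for 11-Sep, 126 for Cbx3, 784 for Ccnb2, 10.98 for Gm15441 and 0.111 for Hsd17b3. D3612.1 had 3, with 0.103 for Beta-s, 0.103 for Hbb-b1 and 0.103 for Hbb-b2, each of them 1 read.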

How the results depend on the processing

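The count of genes called was 0 in limma and in most alternatives. It was 1191 with array weights. The likelihood ratio test with D1388.3 kept, chosen after seeing the data, called 2, and 14 when only the 2 groups were fitted. Genes past 1.5-fold at an unadjusted p under 0.05 numbered 402 higher and 752 lower. Higher genes numbered 249 in the quasi-likelihood test, which left out D1388.3 (391 with it kept, and 229 in limma without it), 77 after scaling to the same sum and 93 without D1344.3 and D1388.3. Leaving out 1 embryo gave 130 (E0103.2) to 793 (D4190.2). Lower genes numbered 467 among genes with a mean of at least 5, 499 in the quasi-likelihood test and 480 in DESeq2, both without D1388.3 (709 and 684 with it kept, and 512 in limma without it), 1712 after scaling to the same sum and 200 without D1344.3 and D1388.3. Leaving out 1 embryo gave 421 (E0103.2) to 1174 (D4190.2). The median of male-specific genes was 0.070 and was -0.0344 after scaling to the same sum, which moved that of all genes from -0.026 to -0.23. No named gene past that criterion was past it in the other direction under any alternative, while 41 of 82 stayed past it without E0103.2 and 35 without D1344.3 and D1388.3. The same-sum scaling, the length and GC adjustment, the fit without D1344.3 and D1388.3 and the count tests that kept D1388.3 were chosen after seeing the data.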

Other observations

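Hba-a1 and Hba-a2 had the same value in each of the 10 embryos, and so did Hbb-b1 and Hbb-b2. How reads of such gene pairs were assigned was not tested here. Among 21 pairs of embryos within a group, 0 had identical values.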
